A study of Mus musculus with 6 samples.

Results

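Slc15a2, Rgcc and Mal are 3 genes of the 32285 listed for every library of this single-cell RNA study of mouse lung. They were found by their symbols, and each symbol named 1 row. They were chosen because an earlier reading of the same libraries had named them for a rise at postnatal day 21 after neonatal hyperoxia. For these 3 genes that contrast is therefore described without a test, and they are tested only for age, for sex and for the difference in response between the sexes. Other genes of their families and pathways, fixed as lists, are read from a fit of the hyperoxia contrast over all genes.

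All 6 libraries were made from lungs of wild-type C57BL/6N mice with the 10x Genomics 3v3.1 kit, after live cells had been sorted. Every library pooled 3 mice, either females or males. The pair for day 1 and the first pair for day 21, each a female and a male library, had breathed room air (21% oxygen). The other pair for day 21 was exposed to 95% oxygen on days 1 to 5 and recovered in room air until collection. Each group thus had 1 library, the mice within a pool cannot be separated, and no group had a replicate.

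Slc15a2 encodes PEPT2, a proton-coupled transporter that carries di- and tripeptides and peptide-like drugs into cells. In the lung it is best known from type 2 alveolar (AT2) cells, the epithelial cells that make surfactant. Rgcc (also known as RGC-32) encodes a regulator of the cell cycle that responds to complement and to TGF-beta and binds the mitotic kinase CDK1. Mal encodes a small membrane protein of the MARVEL family that sits in lipid rafts and takes part in sorting to the apical surface of epithelial cells. It is also known from myelin and T lymphocytes. General capillary cells (gCap) and aerocytes (aCap) are the capillary endothelial cells of the alveolus.

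All 3 genes lie on the minus strand in GENCODE M21 (GRCm38) and code for protein. Slc15a2 (ENSMUSG00000022899) spans chr16:36750177-36784962 with 78.8% of its length intronic, and a processed pseudogene, Gm8425, overlaps it on the plus strand. Rgcc (ENSMUSG00000022018) spans chr14:79288756-79301645 with 92.9% intronic. Mal (ENSMUSG00000027375) spans chr2:127633226-127656695 with 88.2% intronic, and no other gene overlaps Rgcc or Mal.

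The 250 bases before each start site are shown because the 3 genes were higher together in gCap after hyperoxia. They come from RefSeq (GRCm38.p6), read 5′ to 3′ on the minus strand, at chr16:36784963-36785212 for Slc15a2, chr14:79301636-79301885 for Rgcc and chr2:127656696-127656945 for Mal. Capitals mark every match to 1 of 7 motifs on either strand.
Slc15a2: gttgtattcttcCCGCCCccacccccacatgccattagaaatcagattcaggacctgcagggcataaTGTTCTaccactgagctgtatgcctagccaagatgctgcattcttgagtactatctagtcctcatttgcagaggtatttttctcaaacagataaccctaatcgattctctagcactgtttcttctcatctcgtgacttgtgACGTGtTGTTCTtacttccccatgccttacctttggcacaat
Rgcc: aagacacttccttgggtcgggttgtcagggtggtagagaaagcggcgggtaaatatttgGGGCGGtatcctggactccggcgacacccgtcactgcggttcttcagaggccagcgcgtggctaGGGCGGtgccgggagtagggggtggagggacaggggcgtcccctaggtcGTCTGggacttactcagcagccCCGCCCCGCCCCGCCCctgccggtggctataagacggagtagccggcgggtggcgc
Mal: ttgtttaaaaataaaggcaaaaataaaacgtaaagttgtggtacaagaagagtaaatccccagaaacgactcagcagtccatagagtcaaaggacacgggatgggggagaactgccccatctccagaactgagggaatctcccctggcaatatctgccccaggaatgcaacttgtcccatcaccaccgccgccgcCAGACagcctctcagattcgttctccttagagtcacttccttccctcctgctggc
The letters AGAACA belong to the element of the glucocorticoid receptor. SMAD proteins are known to bind CAGAC, and hypoxia-inducible factors are known to bind sites that hold ACGTG. The GC box searched was GGGCGG. The remaining letters searched were those of AP-1, which is known to bind TGACTCA. ETS factors, the usual factors of endothelial genes, are known for sites with CCGGAA. The TATA box was searched as TATAAA. Positions are those of the first base of a match, counted back from the start site. The Slc15a2 window held AGAACA at -183 and -36, ACGTG at -42 and a GC box at -238, all but ACGTG on the reverse strand. The Rgcc window held 5 GC boxes, at -191, -127, -56, -51 and -46, and CAGAC at -78. The last 3 of its GC boxes overlap each other in 1 run. The Mal window held CAGAC at -55 and no other match. Windows that also take in the 50 bases after the start site numbered 32817 over all genes. AGAACA was present in 19.0% of them, CAGAC in 49.6%, ACGTG in 19.6% and the GC box in 35.6%, so no motif was shared by all 3 genes and each is common. In the same windows G and C made up 46.3% of bases for Slc15a2, 66.7% for Rgcc and 51.0% for Mal, against a median of 52.7%.

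The libraries held 122173482 to 163649658 UMIs (unique molecular identifiers, which count transcripts), and 55882 of 76024 barcodes carried one of the authors' cell classes. Levels are given as CPM, the gene's UMIs per 1000000 UMIs of that class and library, with exact Poisson 95% intervals that cover counting error only. The female hyperoxia library stood apart from the female room air library, since 863 of its 2434 gCap cells held no UMI of Xist, the transcript of the inactive X chromosome, against 51 of 1784. Whether that pool held only females was not tested, and the lead results are also given without those cells. Scrublet called 1.31% to 2.03% of classed cells as doublets in the day 21 room air libraries and 3.91% to 4.40% in the hyperoxia libraries. At day 1 the share was higher, at 10.9% in the female and 6.22% in the male library. Pairs of libraries shared at most 37 cell barcodes, and no pair shared more than 0.376% of the smaller library. In AT2 cells the markers matched the name, with the 4 AT2 genes summing to 214951 to 226820 CPM at day 21. In gCap the 7 pan-endothelial genes summed to 16985 to 18947 CPM at day 21, which matches endothelium. They summed to 18969 to 21315 CPM in aCap, so they do not tell gCap from other endothelial classes. In the class named matrix fibroblasts, by contrast, the pan-endothelial sum exceeded that of 4 fibroblast markers after hyperoxia (6152 against 5918 CPM in females and 7410 against 4261 CPM in males). At day 21 a minimum of 50 cells in each of the 4 libraries was met by 14 classes. AT1 and AT2 cells, pericytes, lymphatic cells and dendritic cells did not. Values of these classes lie outside the counts over 14 classes, and none are given for dendritic cells.

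In gCap, all 3 genes were higher in both hyperoxia libraries than in both room air libraries. Slc15a2 was over 3-fold higher in each sex and Mal was higher by a larger fold in the male pair than in the female pair, both from a few CPM, while Rgcc, which is abundant in gCap, was higher by a smaller fold. Slc15a2 stood at 2.41 CPM (female) and 2.99 CPM (male) in room air and at 8.63 and 10.1 CPM after hyperoxia, from 40, 35, 187 and 230 UMIs. The ratio of hyperoxia to room air was 3.58 (95% counting interval 2.53 to 5.17) in females and 3.36 (2.35 to 4.95) in males. Rgcc stood at 179 and 205 CPM in room air and at 274 and 332 CPM after hyperoxia, from 2393 to 7586 UMIs a library. Its ratio was 1.53 (1.46 to 1.60) in females and 1.62 (1.55 to 1.70) in males. Mal stood at 1.99 and 1.20 CPM in room air and at 4.57 and 6.39 CPM after hyperoxia, from 33, 14, 99 and 146 UMIs. Its ratio was 2.30 (1.54 to 3.52) in females and 5.34 (3.08 to 10.0) in males. For each gene the treatments did not overlap. In gCap the same was true, in the same direction, of 13.4% of the 14241 genes tested, and since the genes were chosen on this contrast nothing is read from it.

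**Figure D1:**
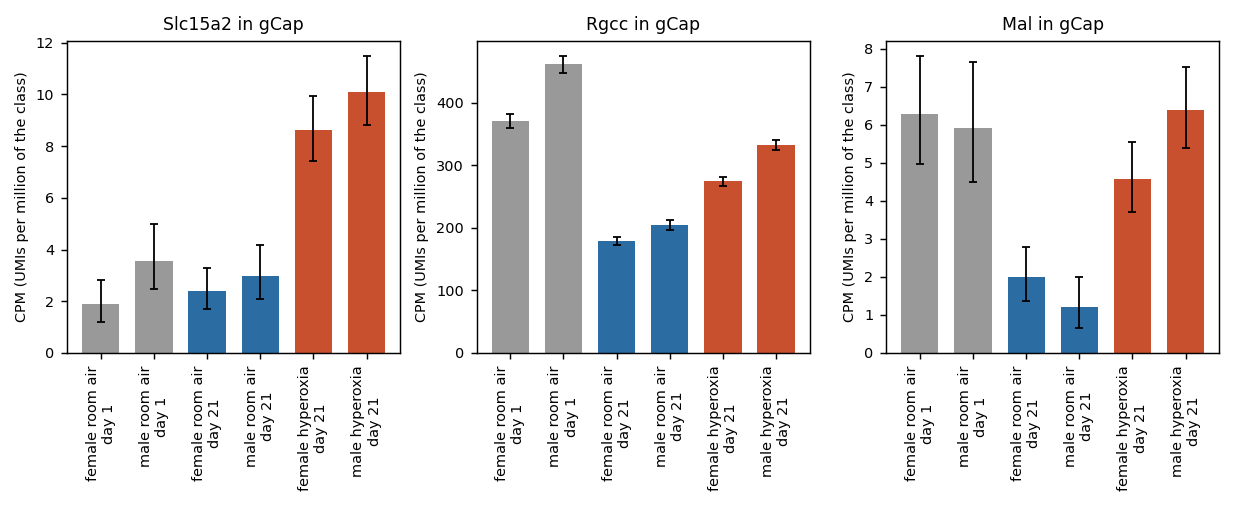
Levels of Slc15a2, Rgcc and Mal in gCap in the 6 libraries, in UMIs per 1000000 UMIs of the class (y axes from 0). Bars are single libraries and lines are exact Poisson 95% intervals: grey bars are day 1, blue bars day 21 in room air and red bars day 21 after hyperoxia. The red bars exceed the blue bars for each gene, and for Mal they stand at 4.57 and 6.39 CPM beside 6.29 and 5.92 CPM at day 1. The day 1 libraries were counted with another version of the software Cell Ranger than the day 21 libraries.

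The share of gCap cells with a UMI moved with the level. For Slc15a2 it was 1.74% and 2.32% in room air and 6.20% and 6.48% after hyperoxia, and cells that held the gene held a mean of 1.06 to 1.29 UMIs in every library. For Mal it was 1.01% and 0.702% in room air and 2.26% and 2.75% after hyperoxia, with 1.40 to 1.85 UMIs per holding cell. With so few UMIs per cell, a share of cells cannot be told apart from a level for these 2 genes. For Rgcc it was 60.7% and 61.5% in room air and 70.0% and 73.6% after hyperoxia, and the UMIs per holding cell went from 2.75 and 2.73 to 3.49 and 3.59. After thinning every cell to 2000 UMIs the shares for Rgcc were 26.7%, 30.0%, 35.7% and 42.3% in the same order of libraries. For Slc15a2 they were 0.340%, 0.354%, 1.78% and 2.06%, and for Mal 0.397%, 0.283%, 0.867% and 1.15%. At this depth the room air shares of Slc15a2 and Mal rest on a few cells.

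Within the female hyperoxia library, gCap cells without and with Xist held Slc15a2 at 6.04 CPM (4.39 to 8.11) and 9.93 CPM (8.37 to 11.7). Rgcc was at 284 and 269 CPM and Mal at 2.88 and 5.42 CPM in the same cells. All 6 values lay above both room air libraries. Leaving out the cells without Xist moved the mean log2 ratio over the sexes from 1.75 to 1.85 for Slc15a2, from 0.65 to 0.64 for Rgcc and from 1.73 to 1.85 for Mal. Leaving out doublets gave 1.72, 0.66 and 1.74. The 4 AT2 markers, whose cells hold Slc15a2 and Mal at high levels, summed in gCap to 310 and 210 CPM in room air and to 164 and 242 CPM after hyperoxia. At the ratios seen in AT2 cells, those sums correspond to at most 0.132 CPM of Slc15a2 and 0.168 CPM of Mal in gCap.

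Slc15a2 was higher after hyperoxia in immune classes and in capillary and arterial endothelium. In venous cells and both stromal classes its values rested on 0 to 15 UMIs a library. In 14 of 14 classes both hyperoxia libraries lay above both room air libraries, beside 19.3% of the 154767 pairs of a gene and a class tested. Only pairs that passed a filter on low counts were tested, and Slc15a2 passed it in 13 classes. Slc15a2 was chosen on this contrast, so nothing is read from the count. The mean log2 ratio over the sexes ranged from 0.36 in venous cells, where each library held 1 to 3 UMIs, to 2.19 in myofibroblasts, with a median of 1.51. The myofibroblast value rests on 0, 3, 11 and 12 UMIs, the 11 from 3 cells, and without doublets the male hyperoxia level was 4.82 CPM (3 UMIs) in place of 15.3 CPM. In 8 classes, myofibroblasts among them, the counting interval lay above 1 in both sexes. The share of all pairs with such intervals was not computed, so nothing is read from that count. T cells held 9.52 and 10.0 CPM in room air and 31.5 and 37.5 CPM after hyperoxia, from 28, 98, 302 and 279 UMIs. B cells held 8.03 and 7.09 CPM in room air and 29.5 and 33.1 CPM after hyperoxia. Nonclassical monocytes, the patrolling monocytes of the vessel wall, held 5.36 and 3.29 CPM and then 18.2 and 18.1 CPM. Each of these 3 immune classes was above room air in both sexes by over 3-fold. Neutrophils held the most Slc15a2 of the 14 classes in room air, at 17.2 and 14.1 CPM, and 39.9 and 35.3 CPM after hyperoxia. Classical monocytes moved less, from 5.50 and 5.20 CPM to 9.15 and 7.63 CPM, and their counting interval in males reached below 1 (0.831 to 2.62). In aCap the values were 4.97 and 3.79 CPM in room air and 8.15 and 12.6 CPM after hyperoxia.

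AT2 cells, the class with the most Slc15a2, differed between treatments by less than the counting error. They held 94.2 CPM (283 UMIs) and 92.2 CPM (14 UMIs, 7 cells) in room air and 99.3 CPM and 106 CPM after hyperoxia. The ratio was 1.05 (0.839 to 1.32) in females and 1.15 (0.668 to 2.16) in males, so a difference was not detectable at this depth, although both hyperoxia values were the higher ones. AT1 cells, the flat cells of gas exchange, held 52.6, 42.3, 48.8 and 61.1 CPM in the same order (26, 8, 30 and 50 UMIs), and the treatments overlapped. Pericytes, the contractile cells around capillaries, held 1 and 0 UMIs in room air and 25 and 37 UMIs after hyperoxia, from 83, 46, 155 and 185 cells. The female ratio was 15.2 (2.49 to 625), and the counting interval of the male one had a lower limit of 2.99. Pericytes had too few cells for the count over 14 classes. In order of room air level, AT2 cells came before AT1 cells, and AT1 cells before neutrophils. T cells and B cells lay between 7.09 and 10.0 CPM, NK cells stood at 13.1 and 4.98 CPM and T Reg cells at 5.26 and 9.68 CPM, and the order of these 4 differed between the sexes. The other 9 of the 14 classes stood at 5.50 CPM or less.

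**Figure D2:**
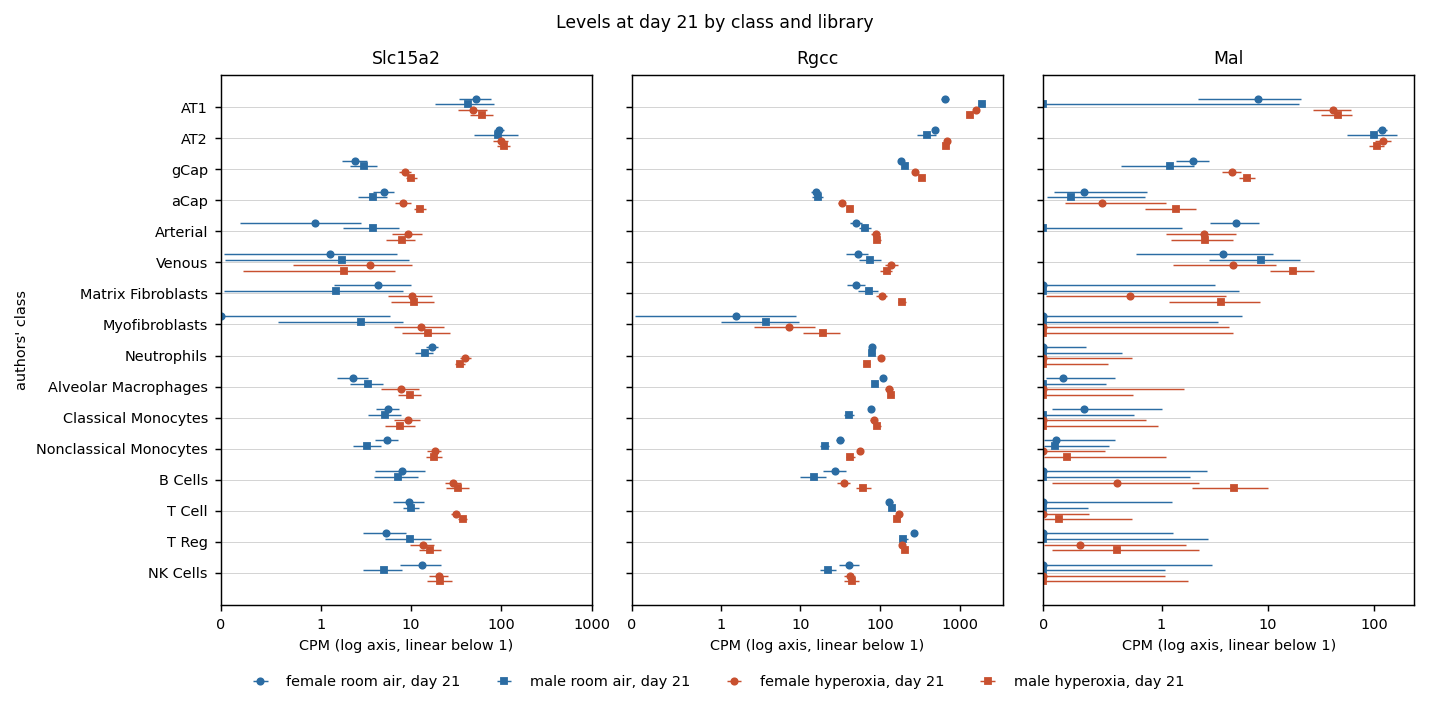
CPM of the 3 genes at day 21 (x axes, logarithmic and linear below 1) in the 14 classes that met the minimum of 50 cells and in AT1 and AT2 cells (y axis). Circles are female and squares male libraries, blue is room air and red hyperoxia, and lines are exact Poisson 95% intervals. In the 14 classes both red points of Slc15a2 lie right of both blue ones. Intervals of the treatments overlap in venous cells and in other classes, among them arterial cells, classical monocytes and T Reg cells. In AT2 cells all 4 points lie between 92.2 and 106 CPM and their intervals overlap.

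Of the markers that could move with these levels, the AT2 list summed in T cells to 72.5 and 65.8 CPM in room air and 74.9 and 109 CPM after hyperoxia, with none of the 4 genes at 0. At the ratios seen in AT2 cells, those sums correspond to at most 0.0511 CPM of Slc15a2. The 7 pan-endothelial genes summed to 449 and 371 CPM in T cells in room air and to 444 and 503 CPM after hyperoxia, with 21.2, 27.0, 70.8 and 74.6 UMIs of Slc15a2 per 1000 UMIs of those genes. In alveolar macrophages, B cells and nonclassical monocytes the pan-endothelial sum was higher after hyperoxia together with Slc15a2. In the macrophages it went from 151 and 199 CPM to 1424 and 1023 CPM, and the UMIs of Slc15a2 per 1000 of those UMIs were lower after hyperoxia (15.1, 16.6, 5.50 and 9.42). In B cells that number was 8.18, 8.78, 16.0 and 8.05, and in nonclassical monocytes it was 21.9, 12.8, 33.6 and 27.3. In NK cells the sum went from 171 and 299 CPM to 698 and 808 CPM, and the number was 76.6, 16.7, 29.0 and 25.8. The sum was also higher after hyperoxia in T Reg cells (370, 361, 511 and 593 CPM), myofibroblasts (106, 534, 889 and 1781 CPM) and matrix fibroblasts (4502, 6071, 6152 and 7410 CPM). In gCap the number of Slc15a2 UMIs per 1000 was 0.139, 0.158, 0.508 and 0.575. The part of endothelial or AT2 transcripts in the Slc15a2 levels was not tested. Without doublets the count stayed at 14 of 14 classes, and without the Xist-free cells it was also 14. Without cells of other lineages that held UMIs of at least 2 pan-endothelial genes, an alternative chosen after seeing the data, it was 12. The 2 classes lost were matrix fibroblasts (3.85, 0, 8.03 and 0 CPM) and T Reg cells (2.87, 15.2, 11.7 and 17.9 CPM), where the treatments then overlapped.

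Rgcc was highest in epithelium and pericytes, and it was higher after hyperoxia in endothelial classes and nonclassical monocytes. In 12 of 14 classes both hyperoxia libraries lay above both room air libraries, beside the same 19.3% of the pairs tested. Rgcc passed the filter on low counts in 13 classes. It too was chosen on this contrast, so nothing is read from the count. The median of the mean log2 ratios was 0.65, with a range of -0.23 to 1.53. In aCap Rgcc stood at 15.7 and 16.5 CPM in room air and at 32.9 and 41.4 CPM after hyperoxia. In arterial cells it stood at 49.8 and 64.7 CPM and then at 87.4 and 91.6 CPM. Venous cells held 52.0 and 75.2 CPM and then 138 and 120 CPM. All 4 endothelial classes thus showed the same direction in both sexes, with counting intervals above 1. Lymphatic cells, with 23 and 36 cells in room air and 64 and 54 after hyperoxia, held 2 and 2 UMIs and then 127 and 55. Without doublets aCap held 10.7, 16.6, 22.2 and 34.1 CPM, still apart by treatment. Within the female hyperoxia library the aCap cells without Xist held 19.3 CPM (14.8 to 24.8) and those with Xist 37.9 CPM (33.9 to 42.2), so the cells without Xist lay near the room air level.

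Among immune cells, nonclassical monocytes held Rgcc at 31.4 and 20.0 CPM in room air and at 55.8 and 42.2 CPM after hyperoxia. The female value of classical monocytes moved little, from 77.1 to 82.8 CPM, with a ratio of 1.07 (0.941 to 1.22). Their male value moved from 40.9 to 92.1 CPM. Alveolar macrophages went from 109 and 87.0 CPM to 128 and 137 CPM. T cells went from 130 and 142 CPM to 172 and 162 CPM. These 4 classes stayed apart by treatment without doublets and without cells that held endothelial transcripts. Neutrophils (79.3, 78.4, 102 and 67.6 CPM) and the class the authors named T Reg (266, 195, 187 and 202 CPM) overlapped between treatments.

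In B cells, NK cells, myofibroblasts and matrix fibroblasts, endothelial transcripts were also higher after hyperoxia. In B cells Rgcc stood at 27.0 and 14.7 CPM in room air and at 35.1 and 61.3 CPM after hyperoxia, while the 7 pan-endothelial genes summed to 981, 808, 1845 and 4107 CPM. Without doublets the Rgcc level of B cells was 16.9, 1.14, 10.1 and 4.26 CPM in the same order, and the treatments overlapped. In NK cells the pan-endothelial genes summed to 171, 299, 698 and 808 CPM, while Rgcc stood at 40.8, 22.0, 41.3 and 43.6 CPM, with a female ratio of 1.01 (0.729 to 1.43). Without doublets NK cells held 36.8, 21.3, 34.0 and 28.6 CPM, which overlapped. Myofibroblasts held 1, 4, 6 and 15 UMIs in all, and without doublets 0 to 3.21 CPM. Matrix fibroblasts stood at 50.1 and 71.3 CPM and then at 104 and 188 CPM, also without doublets at 50.2, 69.1, 108 and 177 CPM. Their 4 fibroblast markers summed to 9462 and 11927 CPM in room air and to 5918 and 4261 CPM after hyperoxia, and the 7 pan-endothelial genes to 4502, 6071, 6152 and 7410 CPM, so cells of this class also held endothelial transcripts. Their part in the Rgcc level was not tested. The Rgcc UMIs per 1000 pan-endothelial UMIs were 11.1, 11.8, 16.9 and 25.4, against 10.3, 10.8, 16.1 and 19.0 in gCap. When cells with endothelial transcripts were left out, 15 to 25 of 58 to 128 matrix fibroblasts remained, at 23.1, 0, 80.3 and 17.8 CPM. Under that choice 8 of 14 classes kept both hyperoxia libraries above both room air libraries, and without doublets 9 did.

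**Figure D3:**
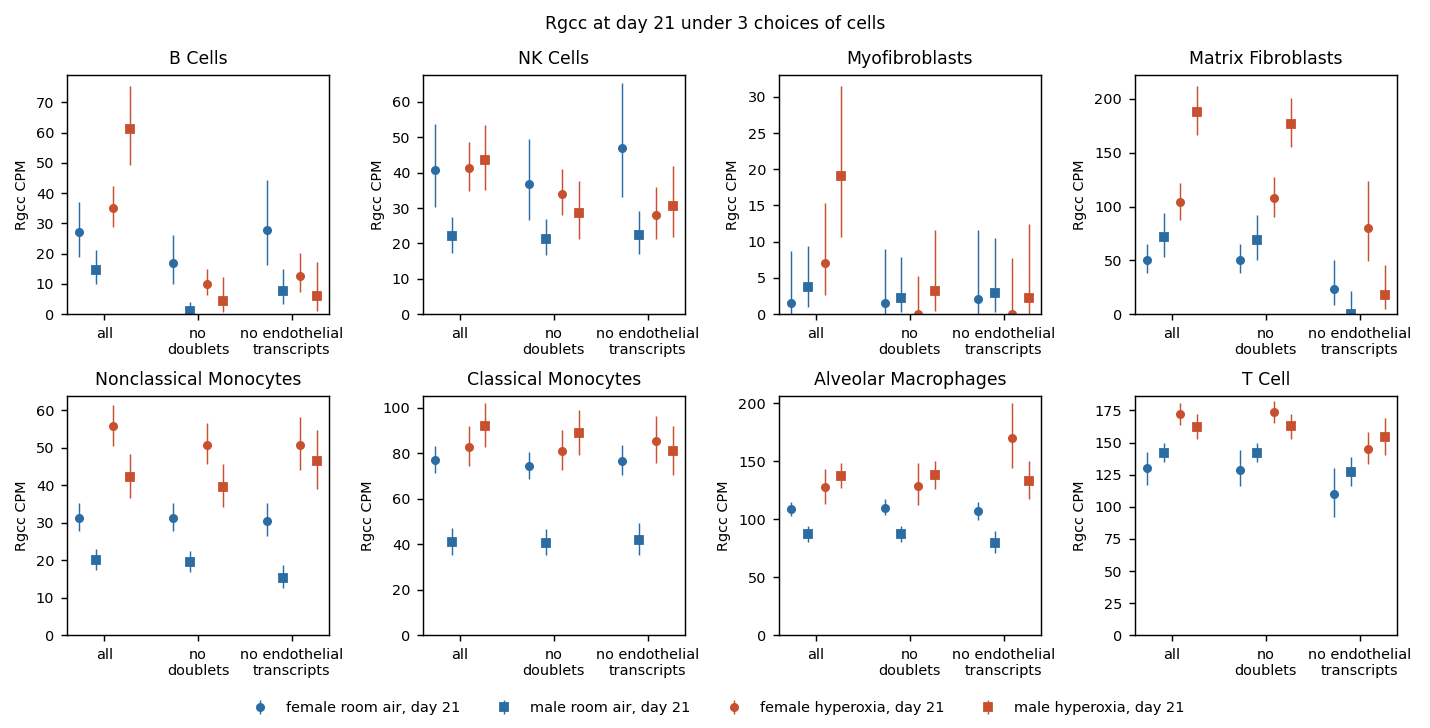
Rgcc CPM at day 21 (y axes from 0) in 8 classes of other lineages, with all cells, without doublets, and without cells that held UMIs of at least 2 pan-endothelial genes (x axes). Points are single libraries with exact Poisson 95% intervals, circles female, squares male, blue room air and red hyperoxia. In B cells the male hyperoxia point moves from 61.3 to 4.26 CPM without doublets, while in nonclassical monocytes it moves from 42.2 to 39.7 CPM.

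Among epithelial and perivascular cells, Rgcc was higher after hyperoxia in AT2 cells, lower in pericytes and without a shared direction in AT1 cells. AT1 cells held 647 CPM (320 UMIs, 32 cells) in the female and 1871 CPM (354 UMIs, 14 cells) in the male room air library, and 1594 and 1343 CPM after hyperoxia, so the treatments overlapped. AT2 cells held 481 and 382 CPM in room air and 690 and 661 CPM after hyperoxia, with the male room air value from 58 UMIs in 7 cells. Their ratio was 1.43 (1.31 to 1.57) in females and 1.73 (1.33 to 2.29) in males, with a mean log2 ratio of 0.65, the same as in gCap and arterial cells. The pan-endothelial genes summed in AT2 cells to 203 and 178 CPM in room air and to 463 and 504 CPM after hyperoxia. Their part in the Rgcc level was not tested. Pericytes were lower after hyperoxia, at 508 and 590 CPM in room air and 463 and 460 CPM after it. Their ratio was 0.912 (0.817 to 1.02) in females and 0.779 (0.688 to 0.884) in males.

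At day 21 Mal stood highest in AT2 cells among the classes with at least 50 cells in a library, and its levels in endothelium were lower. AT2 cells held 119 and 98.8 CPM in room air (359 and 15 UMIs) and 121 and 106 CPM after hyperoxia (136 and 163 UMIs). The ratios were 1.01 (0.822 to 1.23) in females and 1.07 (0.630 to 1.96) in males. AT1 cells held 4 and 0 UMIs in room air, from 32 and 14 cells, and 25 and 37 UMIs after hyperoxia, from 40 and 57 cells. The male room air library, at 0, allows up to 15.9 CPM (3 UMIs). The hyperoxia values of 40.6 and 45.2 CPM lay above the female room air value of 8.09 CPM, whose interval reached 20.7 CPM. Neutrophils and NK cells held 0 UMIs in each of the 4 libraries, which in the 871 to 1856 neutrophils of a library allows at most 0.293 to 0.614 CPM at a floor of 3 UMIs. The gCap levels in every library were above that range. B cells held 0 and 0 UMIs in room air and 2 and 7 UMIs after hyperoxia (0.621 and 4.82 CPM). Without doublets B cells held 0 UMIs of Mal in both hyperoxia libraries.

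In the remaining endothelium Mal rested on few UMIs. It held 4 and 2 UMIs in room air and 6 and 21 after hyperoxia in aCap, 3, 5, 4 and 19 in venous cells and 16, 0, 8 and 10 in arterial cells. In aCap the female ratio was 1.46 with an interval of 0.345 to 7.02, and all 4 UMIs of its room air library lay in 1 cell. Over the 14 classes 5 had both hyperoxia libraries above both room air libraries. Of the 154767 pairs of a gene and a class that passed the filter on low counts, 19.3% did. Of these 5 classes, 4 held 0 to 6 UMIs in at least 3 of the 4 libraries and did not pass that filter. No share was computed for pairs below the filter, so nothing is read from the count. The count was 3 without doublets, 3 without the Xist-free cells and 2 without cells that held endothelial transcripts, and it was 8 without the female hyperoxia library. gCap was among the classes that stayed in each case, and it was the only class of the 14 in which Mal passed the filter on low counts.

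**Figure D4:**
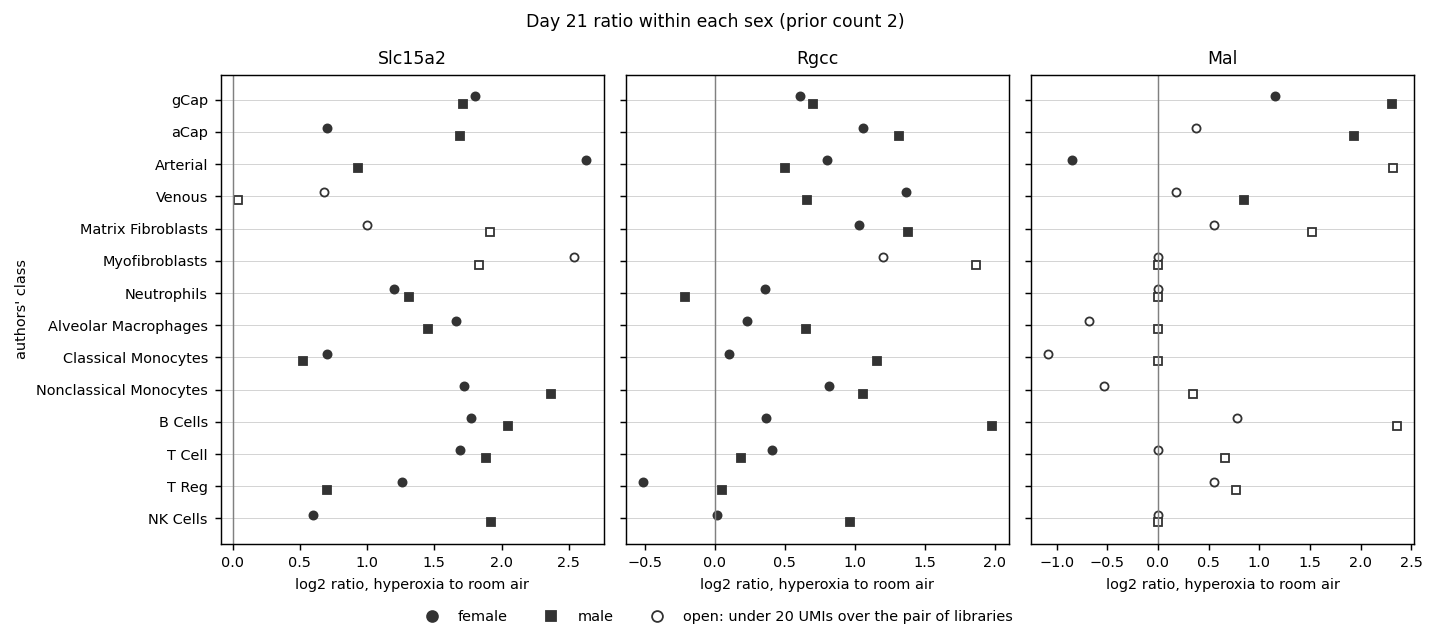
Log2 ratio of hyperoxia to room air within each sex (x axes, prior count 2) in the 14 classes (y axis). Circles are females and squares males, and open symbols rest on under 20 UMIs over the pair of libraries. Slc15a2 lies right of 0 for both sexes in all 14 classes, and Mal has few filled points outside gCap.

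Between day 1 and day 21 in room air, Rgcc fell in gCap and aCap, Mal fell in gCap, and no change was detected for Slc15a2 in gCap. This comparison shares the pair of day 21 room air libraries with the one that chose the genes. The day 1 libraries were counted with Cell Ranger 6.0.0 and the day 21 libraries with 7.0.1, and whether reads in introns were counted is not given in the sources used here, so age and counting cannot be told apart. edgeR's quasi-likelihood fit over all genes, with sex as a covariate, called 54.3% of 109029 pairs of a gene and a class over 10 classes, 28.6% as higher and 25.7% as lower. In gCap alone it called 67.6% of 13646 genes, 35.1% as higher and 32.5% as lower, and DESeq2 called 27.9% of all pairs. Against that background, Rgcc was called in 8 of 10 classes, in 7 of them lower. The 7 include myofibroblasts, where Rgcc passed the filter on low counts through the day 1 libraries, in which it was high. In gCap it went from 371 and 461 CPM at day 1 to 179 and 205 CPM, a log2 change of -1.23 (SE 0.116, edgeR adjusted p = 2.65e-13). In aCap it went from 126 and 227 CPM to 15.7 and 16.5 CPM, a log2 change of -3.48 (SE 0.179, edgeR adjusted p = 9.73e-81). In myofibroblasts Rgcc went from 72.7 and 144 CPM to 1.57 and 3.69 CPM, which are 1 and 4 UMIs. For that reason the myofibroblast values are given without a test. In neutrophils Rgcc rose, from 35.3 and 40.3 CPM to 79.3 and 78.4 CPM (log2 change 0.94, SE 0.130, edgeR adjusted p = 2.12e-08). The day 1 and day 21 libraries did not overlap in any of these 4 classes. The share of all genes without overlap between the ages was not computed, so nothing is read from it.

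In gCap Mal went from 6.29 and 5.92 CPM to 1.99 and 1.20 CPM, a log2 change of -2.03 (SE 0.309, edgeR adjusted p = 1.18e-07). In aCap and B cells Mal passed the filter on low counts through the day 1 libraries, where it was high, so their values are given without a test. In aCap it went from 24 and 10 UMIs to 4 and 2, and in B cells from 12 and 14 UMIs (8.20 and 10.2 CPM) to 0 and 0. AT1 cells, outside the tested classes, held Mal at 232 and 246 CPM at day 1 from 5279 and 4249 UMIs. Slc15a2 was tested in 5 classes and called in neutrophils, from 1.96 and 10.3 CPM to 17.2 and 14.1 CPM (log2 change 1.32, SE 0.309, edgeR adjusted p = 0.000257). That call was lost without the female day 1 library (log2 change 0.42, edgeR adjusted p = 0.170) and without the female day 21 library (1.07, edgeR adjusted p = 0.117). In gCap its change was -0.08 (SE 0.338, edgeR adjusted p = 0.835). In AT2 cells it stood at 117 and 126 CPM at day 1, and the day 1 class AT2 Lyz1+ held 129 and 128 CPM.

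**Figure D5:**
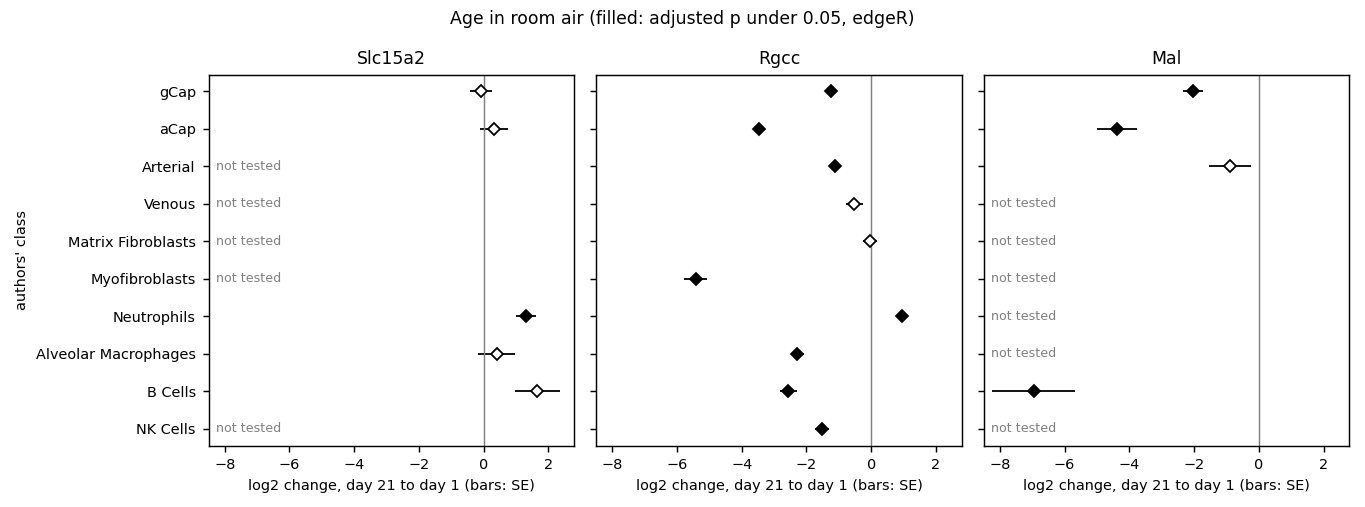
Log2 change from day 1 to day 21 in room air (x axes) with its SE as bars, in the 10 classes with at least 50 cells in each of the 4 room air libraries (y axis). Filled symbols passed an edgeR adjusted p of 0.05 and open ones did not, and classes where the gene did not pass the filter on low counts are marked. Rgcc lies left of 0 in most classes and right of 0 in neutrophils. Rgcc in myofibroblasts (-5.42) and Mal in aCap and B cells passed that filter through the day 1 libraries. Their filled symbols are not read as tests.

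For gCap the age values can be set beside those after hyperoxia. Rgcc after hyperoxia, at 274 and 332 CPM, lay between the room air values of day 21 and those of day 1 (371 and 461 CPM). Mal after hyperoxia, at 4.57 and 6.39 CPM, was near its day 1 values of 6.29 and 5.92 CPM, and their counting intervals overlapped. Slc15a2 after hyperoxia, at 8.63 and 10.1 CPM, lay above its day 1 values of 1.89 and 3.57 CPM as well as above day 21 in room air. These comparisons were not tested, and they share the day 21 room air libraries. The day 1 libraries were counted with another version of Cell Ranger, so here too age and counting cannot be told apart.

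Between the sexes no change was called. The sex fit over all 6 libraries called 0.105% of 112850 pairs over 10 classes and none of the 23 pairs with 1 of the 3 genes. For Rgcc the unadjusted p was under 0.05 in 5 classes, with females lower in each, and the smallest edgeR adjusted p was 0.153, in matrix fibroblasts (log2 change of females to males -0.91, SE 0.160). DESeq2 also called 0, and 0.0798% of all pairs. In gCap Rgcc was lower in the female library in each of the 3 pairs (371 and 461, 179 and 205, 274 and 332 CPM), with a log2 change of -0.28 (SE 0.0656, edgeR adjusted p = 0.405). For Slc15a2 and Mal no class reached an unadjusted p of 0.05. One of the 3 female libraries here is the hyperoxia library with many cells without Xist. Without those cells the fit again called 0 pairs, and the log2 change of Rgcc in gCap was again -0.28. The Rgcc result depended on the libraries and cells taken: 2 or 3 pairs were called without any 1 of the day 21 libraries, 1 without doublets (aCap, log2 change -0.70, edgeR adjusted p = 0.00521), and 3 without the filter on low counts, all of them Rgcc and lower in females.

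The difference in response between the sexes was tested as a term for females after hyperoxia over all 6 libraries, and it called none of 25 pairs, beside 0.428% of 120233. One of the 25, Mal in neutrophils, held no UMI at day 21 and could not have been called. The genes had been named earlier under a rule that asked for the same direction in both sexes. Rgcc had an unadjusted p under 0.05 in 3 classes and Mal in 1, the smallest edgeR adjusted p was 0.170, for Rgcc in neutrophils (0.65, SE 0.224), and DESeq2 called 0, and 0.0150% of all pairs. The term sets the sex difference after hyperoxia against that of the room air libraries of both ages. For Mal in gCap the term was -0.73 (SE 0.426, edgeR adjusted p = 1.00), and the difference between the sexes' ratios at day 21 alone was not tested. Its female hyperoxia cells are those of the library with many cells without Xist. Without these cells 0 pairs were called, the term was -0.48 for Mal in gCap (SE 0.427, edgeR adjusted p = 1.00), and it was 0.28 for Rgcc in neutrophils (SE 0.283, edgeR adjusted p = 0.758).

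The families and pathways of the 3 genes were read from a fit of the hyperoxia contrast over all genes, edgeR's quasi-likelihood test on summed counts with sex as a covariate and 1 residual degree of freedom. A pair of a gene and a class was called at a Benjamini-Hochberg adjusted p under 0.05. The fit called 2.28% of the 154767 pairs, 1.63% as higher, and DESeq2 called 0.750%. It called 2.53% of genes in gCap, 1.35% as higher and 1.19% as lower, and 0.654% of all pairs as lower. Slc15a1 and Slc15a5 of the peptide transporter family passed the filter on low counts in no class and were not tested. Slc15a3 and Slc15a4 of the same family were called in none of 27 tested pairs, with a median log2 change of -0.18 beside 0.00 for all genes. In those pairs DESeq2 also called 0, and 5 had an unadjusted p under 0.05, all for Slc15a3. In gCap Slc15a3, a lysosomal histidine and peptide transporter, stood at 22.6 and 23.7 CPM in room air and 19.3 and 18.1 CPM after hyperoxia, and Slc15a4 at 13.5, 13.1, 16.1 and 13.6 CPM. Of 7 genes of proton exchange and peptide cleavage, only Slc9a3r2 was called, higher in 3 of 48 pairs (alveolar macrophages, nonclassical monocytes and myofibroblasts), and 0 pairs were called without doublets. Slc9a3r2 stood at 658 to 799 CPM in gCap, and the pan-endothelial sum was higher after hyperoxia in all 3 classes. Of 14 genes of the MAL and MARVEL family, 3 of 131 pairs were called higher and 1 lower, and none of 12 in gCap by edgeR or DESeq2, where 1 had an unadjusted p under 0.05. These were Pllp and Cmtm8 higher and Marveld2 lower in alveolar macrophages, and Cmtm8 higher in nonclassical monocytes. Without doublets none of the 4 was called. Pllp stood at 65.0 to 83.3 CPM and Cmtm8 at 171 to 184 CPM in gCap, against at most 6.09 and 12.6 CPM in alveolar macrophages, where the pan-endothelial sum was also higher after hyperoxia.

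Of 6 raft proteins, 13 of 84 pairs were called higher and 1 lower, with none of 6 in gCap by edgeR or DESeq2 or at an unadjusted p under 0.05. The 13 were Cav1, Cav2, Cavin1 and Cavin2, the coat proteins of caveolae, in alveolar macrophages, B cells, nonclassical monocytes and, for Cav2, myofibroblasts. In these classes the summed pan-endothelial level was also higher after hyperoxia, going from 151 and 199 CPM to 1424 and 1023 CPM in alveolar macrophages and from 245 and 257 CPM to 543 and 663 CPM in nonclassical monocytes. Its part in those calls was not tested, and 3 of the raft pairs were called without doublets. Of 9 mitotic genes, 7 of 53 pairs were called higher, all in alveolar macrophages, and 1 lower (Top2a in B cells). Without doublets 10 pairs were called. The RGCC partner Cdk1, 1 of the 9, was tested in 4 classes and called in none. In gCap none of 6 genes was called by edgeR or DESeq2, and 2 had an unadjusted p under 0.05.

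Of 12 genes of the TGF-beta and SMAD response, 14 of 151 pairs were called higher and 5 lower, and 10 were called without doublets. Of the 14, Smad6, Smad7, Id1, Id3 and Eng gave 12, in alveolar macrophages, nonclassical monocytes, B cells and myofibroblasts, where the pan-endothelial sum was also higher after hyperoxia. Eng, an endothelial co-receptor of TGF-beta, stood at 5.41 and 7.32 CPM in alveolar macrophages in room air and at 80.5 and 58.4 CPM after hyperoxia. The part of endothelial transcripts in those calls was not tested. Id2, an inhibitor of DNA-binding proteins, was the only 1 of 12 called in gCap. It fell from 62.8 and 74.1 CPM to 42.5 and 45.2 CPM (log2 change -0.62, SE 0.0870, edgeR adjusted p = 5.51e-05). Of 10 glucocorticoid-responsive genes, 29 of 127 pairs were called higher and 2 lower, with a median log2 change of 0.32, and 33 were called without doublets. Some of these calls lay in classes whose pan-endothelial sum was also higher after hyperoxia and concerned genes abundant in gCap. Zbtb16 in alveolar macrophages went from 7.44 and 8.75 CPM to 75.7 and 64.3 CPM, and Klf9 in B cells from 16.8 and 21.3 CPM to 60.6 and 126 CPM. The part of endothelial transcripts in them was not tested. In gCap 4 of 9 were called, all higher. DESeq2 called 2 in gCap and 17 pairs over the 14 classes. Fkbp5, a co-chaperone of the glucocorticoid receptor, rose from 40.4 and 41.3 CPM to 72.7 and 82.6 CPM (log2 change 0.94, SE 0.0876, edgeR adjusted p = 1.21e-07). Tsc22d3, Zbtb16 and Klf9 rose by 0.32, 0.40 and 0.40 on the log2 scale. Those 3 calls, and those of Id2 and Phlda3, did not hold under all alternatives. Without the male hyperoxia library the edgeR adjusted p was 1.000 for Tsc22d3 and Zbtb16, and without the female one it was 0.168 for Id2. Zbtb16 also had a log2 change of 0.16 without the male room air library. Of 8 p53 targets, 11 of 96 pairs were called higher and none lower, 8 of them for Cdkn1a and 3 for Phlda3, and 9 were called without doublets. The other 6 (Mdm2, Ccng1, Eda2r, Sesn2, Bax and Trp53inp1) were called in no class. Some of the Cdkn1a calls were in B cells (13.9, 15.2, 52.5 and 183 CPM), nonclassical monocytes, myofibroblasts and matrix fibroblasts. A Phlda3 call was in nonclassical monocytes. In these classes the pan-endothelial sum was also higher after hyperoxia, and its part in the calls was not tested. In gCap Cdkn1a, the cell cycle inhibitor p21, rose from 310 and 316 CPM to 601 and 710 CPM (log2 change 1.08, SE 0.0811, edgeR adjusted p = 6.58e-09), and Phlda3 rose by 0.55. Cdkn1a and Fkbp5 were called in gCap under each of the 10 alternatives of the fit, with adjusted p of at most 0.0206.

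The 3 genes did not share 1 pattern over cell classes. Over the 56 points of 14 classes and 4 libraries, the Pearson r of log2(CPM + 1) was 0.24 between Slc15a2 and Rgcc, -0.26 between Slc15a2 and Mal and 0.31 between Rgcc and Mal. For the log2 ratios of hyperoxia to room air (28 points) it was 0.45, 0.00 and 0.28. Points of 1 library share its depth and free RNA, and these values are descriptions. Of 15868 candidate genes, those closest to Slc15a2 in level were Cdk5rap1 (r = 0.68), Creb1, Fbxo33, Eif5 and Ccnd3. Those closest to Rgcc were Znrf1 (0.72), Rab27a, Jak3, Atp6v1g2 and Lfng. Those closest to Mal were Gm39822 (0.88), Fam107a, Tcf15, Myrip and Apold1. Fam107a, like Mal, was low in gCap, at 9.51 and 11.2 CPM in room air and 13.7 and 19.3 CPM after hyperoxia. In the ratio, the closest were Derl2 (0.76), Gm20548, Tubgcp3, Ccdc125 and Tmx1 for Slc15a2. For Rgcc they were P2ry2 (0.80), Slc26a10, Txlna, Mob3c and Stat3, and for Mal Il1bos (0.73), D5Ertd615e, Zfp710, Hpcal1 and Znhit1. In sparse counts such values are weak, and they say nothing of shared control.

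Within gCap the genes were too sparse to say whether the same cells held them. Among 2860 male hyperoxia cells thinned to 2000 UMIs, 22 (0.769%, exact binomial 95% interval 0.483 to 1.16) held both Slc15a2 and Rgcc, beside 0.873% from the product of the single shares. Rgcc and Mal were both held by 19 cells (0.664%, 0.400 to 1.04), beside 0.488%. Slc15a2 and Mal were both held by 2 cells, also 2 among 2421 female hyperoxia cells. For the pairs with Rgcc the product lay within the counting interval in both hyperoxia libraries.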

How the data were processed

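Live lung cells of 6 pooled libraries were sequenced with the 10x Genomics 3v3.1 kit, per the labels' protocols. The authors deposited UMI counts per gene and barcode, and a table of cell classes, made with Cell Ranger and Seurat 4.1.1 on mm10, per the submitters' processing notes. The notes give Cell Ranger 6.0.0; per the file headers it was 6.0.0 at day 1 and 7.0.1 at day 21. Whether intronic reads were counted is not given in the sources used here. The authors' classes were used, and barcodes without a class (22.0% to 32.8% of a library) were kept out of the comparisons. Deposited counts were summed per library and class, so cells were never replicates, and the labels name no replicate of any group.

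The members and lists were chosen with earlier results of these data known. Genes named beyond the 3 members are list genes called in gCap and, for each member, the 5 genes with the highest Pearson r in level and in ratio, among genes with at least 20 UMIs in each day 21 library; list genes named in other classes were chosen after their values were seen. CPM has exact Poisson, and shares have exact binomial (Clopper-Pearson), 95% intervals for counting error only. Log2 ratios used a prior count of 2. Tests were edgeR 4.0.16 quasi-likelihood fits (TMM, filterByExpr) on all genes, in classes that reached 50 cells per library, with Benjamini-Hochberg adjustment within a class. The hyperoxia and age fits had sex as a covariate, the sex fit condition, and the interaction fit both. On simulated counts with 200 changed genes (log2 1.5), 199 were recovered in gCap for hyperoxia, 197 for age, 199 for sex and 139 for the interaction. In neutrophils 117 were recovered for the interaction. The changed genes had a mean of at least 50 counts, and the spread between libraries was fixed. Recovery therefore does not cover classes where Slc15a2 or Mal held few UMIs. DESeq2 1.42.0 was an alternative. Doublets were called with Scrublet (scanpy 1.11.5) on all barcodes of a library. Of 32285 gene identifiers, 32158 matched GENCODE M21, and all 3 promoters matched RefSeq. No protein sequences are shown.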

Additional observations from a re-analysis of the deposited data

Results flagged for a closer look

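The barcodes to which the authors gave no class were not used in the comparisons, and they held all 3 genes at levels above those of many classes. Slc15a2 stood there at 15.5 CPM (14.2 to 16.8) and 17.2 CPM (16.1 to 18.4) in room air at day 21 (female, then male), and at 27.3 CPM (25.9 to 28.8) and 29.7 CPM (28.2 to 31.2) after hyperoxia. Rgcc stood at 153 and 131 CPM in room air and at 161 and 198 CPM after hyperoxia. Mal stood at 13.5 CPM (12.3 to 14.8) and 12.3 CPM (11.3 to 13.3) in room air and at 13.9 CPM (12.9 to 14.9) and 15.1 CPM (14.1 to 16.2) after hyperoxia. These barcodes were singled out because both hyperoxia libraries exceeded both room air libraries for each gene, though for Mal the intervals of the female pair overlapped. The genes had been chosen on this same contrast. The share of all genes with that order in these barcodes was not computed, so nothing is read from it. At day 1 the same kind of barcode held more of each gene, with Slc15a2 at 78.9 and 56.0 CPM, Rgcc at 231 and 277 CPM and Mal at 71.8 and 71.2 CPM. Which cells they were was not tested. No group had more than 1 library, and no library was compared with others of its own group.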

How the results depend on the processing

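The direction in gCap held for each of the 3 genes under every alternative run there. Leaving out 1 library at a time gave mean log2 ratios of 1.60 to 1.91 for Slc15a2, 0.52 to 0.79 for Rgcc and 1.40 to 2.08 for Mal, and thinning cells to 2000 UMIs gave 2.26 for Slc15a2. The causes of the changes that follow were not tested. Mal was separate between treatments in 3 classes without doublets, 3 without Xist-free cells, 2 after thinning, 2 without cells holding endothelial transcripts, and 5 to 8 without 1 library. Rgcc was separate in 9 classes without doublets, 9 after thinning, 9 by the mean of cells' CPM and 8 without cells holding endothelial transcripts. Slc15a2 was separate in 10 after thinning. The mean log2 ratio of Rgcc reversed to -0.64 in B cells, -0.37 in myofibroblasts and -0.15 in NK cells without cells holding endothelial transcripts, and to -0.16 in myofibroblasts without doublets. The called pairs of list genes went from 90 to 52 with DESeq2, 154 without the filter on low counts, 45 without the covariate and 71 to 96 without 1 library. The age fit called 12 pairs, among them Mal in aCap and B cells and Rgcc in myofibroblasts, which are given without a test. Leaving out 1 library at a time gave log2 changes with age in gCap of -1.42 to -1.05 for Rgcc and -2.44 to -1.72 for Mal. The sex fit called 3 without the filter, 1 without doublets and 0 to 3 without 1 library, and the interaction fit 0 under the 5 alternatives run. Leaving out a library or the covariate could not be fitted for the interaction. No pairing beyond that by sex was possible, because the labels give no replicate numbers and each group has 1 library.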
